A study of Mus musculus with 16 samples.

Results

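Long stretches of m6A signal in exons were examined in mouse livers after a normal diet (ND) or one high in fructose (HFrD). m6A peaks of 8 mice that shared at least 1 bp were merged into regions, and the long regions were chosen by values of the peaks themselves, a merged length of at least 1500 bp and a peak in the lists of at least 4 mice. The 1399 long regions made up 7.98% of all 17526 regions and 14.7% of the 9547 regions found in at least 4 lists, and they carried 50.2% of the summed length of the latter. Length and number of lists are therefore given as descriptions, with no test. Another 333 regions of at least 1500 bp had a peak in fewer than 4 lists and were not included.

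Livers came from male C57BL/6J mice aged 10 to 11 weeks that were kept for 2 weeks on ND or on HFrD, in which 70% of the energy was carbohydrate, 10% fat and 20% protein. The 16 samples were 4 immunoprecipitated (IP) and 4 input libraries for each diet, and the labels give no genotype difference between the groups. Peak lists were analysed for ND mice 1, 3, 6 and 7 and HFrD mice 1, 2, 5 and 7. The lists held 8055 to 11517 peaks, shortest in HFrD mouse 7 and longest in ND mouse 7. The number of reads behind each list was not analysed, so depth is unknown. Whole liver was profiled, and fewer cells of a type, less RNA per cell and less methylation cannot be told apart from a missing peak. Of 8 hepatocyte markers, 4 held a peak in some list and Alb, Serpina1a, Cyp2e1 and Cps1 held none. Among markers of other liver cells, 3 of 4 for Kupffer cells, 3 of 3 for stellate cells and 3 of 3 for endothelium held a peak.

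N6-methyladenosine (m6A) is written on messenger RNA by a methyltransferase complex with METTL3 as its catalytic subunit, mostly at an adenosine in short motifs such as GGACT, in which U stands for T in RNA. In mammals the mark is known to be dense in long internal exons, in last exons and near stop codons, and sparse in short exons, where exon junction complexes keep the complex away. Proteins of the YTH family bind the mark and influence the decay and translation of the transcript. MeRIP-seq pulls down RNA fragments with an antibody against m6A, so a peak shows the fragments around a mark and not the methylated base itself.

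The first set of sequences shows what lies under the long regions that separated the diets, those with a peak in all 4 mice of a single diet and in none of the other. For each of the 8 such regions with a motif under the peaks of every mouse that held it, the GGACT closest to the middle of the shared part is printed with 12 bases on either side. Coordinates are of mm10 (GRCm38), the sequence is that of the transcript strand written as DNA, 5′ to 3′, and capitals mark GGACT. The sites of Rassf3, Mief2, Chtf8, Snrk and Inhbb lie in 3′UTRs, and those of Ppp1r3g, Osmr and Hic2 in coding sequence.
Rassf3 (chr10:121412098-121412126, minus strand): tgtgcctcagctGGACTtgacctgtacat
Mief2 (chr11:60731967-60731995, plus strand): ctaggtaaatgaGGACTgtaactgacatg
Chtf8 (chr8:106885827-106885855, minus strand): ccaagggcaggcGGACTtctgggagcaag
Snrk (chr9:122168417-122168445, plus strand): accgacgactccGGACTgatagctatctc
Inhbb (chr1:119416397-119416425, minus strand): gccctttgctggGGACTtcctcctggtgt
Ppp1r3g (chr13:35969399-35969427, plus strand): attgcagtcaggGGACTctggatcaaagg
Osmr (chr15:6815636-6815664, minus strand): gcacaccaacttGGACTattggctccacc
Hic2 (chr16:17258402-17258430, plus strand): aagaaggtgaagGGACTggggacagggtt

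The second set shows 150-base windows of coding sequence in which GGACT was densest, among long regions found in all 8 lists, with the same marking. The printed windows were placed on the motif, each starting 5 bases before a GGACT. Of 6603 windows of the same length laid end to end over the coding sequence of these regions without regard to the motif, 14.7% held at least 1 GGACT on the transcript strand, 1.23% at least 2 and 0.151% at least 3. Those of Son, which encodes a splicing cofactor of nuclear speckles, and of Tnxb, which encodes an extracellular matrix tenascin, are stretches of repeated sequence. Ppp1r9b encodes the synaptic scaffold spinophilin and Scaf8 a protein that binds the tail of RNA polymerase II.
Son (chr16:91656599-91656748, plus strand): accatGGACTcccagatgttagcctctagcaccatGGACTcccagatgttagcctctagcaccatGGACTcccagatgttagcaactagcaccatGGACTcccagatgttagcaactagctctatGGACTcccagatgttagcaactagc
Ppp1r9b (chr11:94992697-94992846, plus strand): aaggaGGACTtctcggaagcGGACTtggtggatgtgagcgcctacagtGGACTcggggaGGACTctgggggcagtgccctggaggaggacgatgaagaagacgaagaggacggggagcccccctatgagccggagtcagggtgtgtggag
Scaf8 (chr17:3196991-3197140, plus strand): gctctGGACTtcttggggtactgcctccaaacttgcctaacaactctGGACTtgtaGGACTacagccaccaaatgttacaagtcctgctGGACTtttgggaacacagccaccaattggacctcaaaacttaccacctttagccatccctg
Tnxb (chr17:34671924-34672073, plus strand): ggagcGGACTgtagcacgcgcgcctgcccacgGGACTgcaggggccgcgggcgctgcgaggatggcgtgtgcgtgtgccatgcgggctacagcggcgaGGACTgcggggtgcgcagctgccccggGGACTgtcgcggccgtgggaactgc

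The long regions were mostly last exons around the stop codon. Of the 1399 regions, 1297 (92.7%) could be placed on the transcript that their peaks name. Among these, 929 (71.6%) lay in a last exon, 102 (7.86%) in the only exon of a transcript, 214 (16.5%) in an internal exon and 52 (4.01%) in a first exon. The shorter regions found in at least 4 lists differed in this by length. Last exons held 67.8% of regions of 1000 to under 1500 bp, 44.3% of those of 500 to under 1000 bp and 3.96% of those under 500 bp, for which internal exons held 67.4%. Of 1294 long regions in coding transcripts, 1000 (77.3%) held the stop codon, 96 the start codon without the stop codon, 161 (12.4%) were mainly coding sequence with neither, 36 (2.78%) mainly 3′UTR and 1 mainly 5′UTR. Among shorter regions in coding transcripts, the stop codon lay in 68.7% of those of 1000 to under 1500 bp. It lay in 44.1% of those of 500 to under 1000 bp. Most peaks end at or within the borders of an exon, so exon length bounds most regions. The shares of long regions thus follow in part from the choice by length. Of the 1297 regions, 74 were longer than the exon they were placed on, as Eppk1 and Alkbh8. In 16 of the 1399 regions the peaks named more than 1 gene, as in those listed below under Hnrnpm, Gemin4 and Stard9. Their covered length is that of the merged region and not of a single gene.

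**Figure D1:**
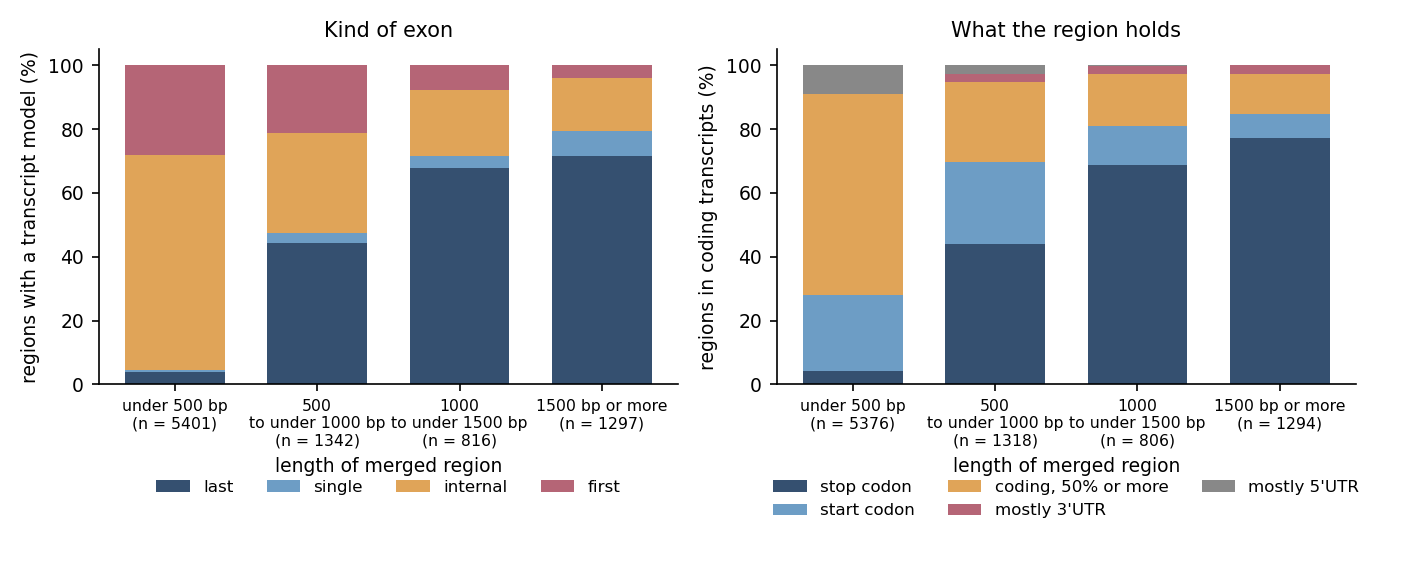
Kind of exon (left, percent of regions with a transcript model) and content of the region (right, percent of regions in coding transcripts) for 4 classes of merged length among regions found in at least 4 lists. Last exons rise from 3.96% of regions under 500 bp to 71.6% of regions of 1500 bp or more, and regions that hold a stop codon from 4.13% to 77.3%.

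The exons around the long regions had a median length of 2733 nt, and 717 regions (55.3%) filled at least 95% of their exon, against 96.9% of regions under 500 bp. Single peaks filled less than merged regions. Of 9307 peaks of the long regions with a model, 29.2% began and ended at the borders of their exon, 51.4% began at its 5′ border and ended inside, 5.44% touched the 3′ border alone and 14.0% neither. Internal and last exons differed in this respect. In internal exons, 78.8% of 1574 peaks spanned the whole exon. In last exons, 18.3% of 6613 peaks spanned it, 64.1% touched the 5′ border alone and 2.96% the 3′ border alone. The share of peaks that touched the 5′ border alone lay between 49.9% and 52.5% in the 8 mice and averaged 51.5% ± 1.10 for ND and 51.3% ± 0.861 for HFrD mice (SD, n = 4 each). In the shorter regions it was 11.4% ± 0.284 and 11.4% ± 1.22. The kinds of exon differed between these sets. Of 49850 peaks of shorter regions with a model, 28087 lay in internal exons, where 1.10% touched the 5′ border alone. Within last exons the sets were closer, with 57.3% of 8740 peaks of shorter regions against the 64.1% of long regions.

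Coverage along last exons fell with distance from the 5′ border. Over the 929 long regions in last exons, 70.9% to 85.3% of the bases in the first 200 nt lay under a peak, depending on the mouse. Coverage was highest between 400 and 800 nt in every mouse and lay between 52.8% and 71.1% at 1600 to 1800 nt. From 3800 to 4000 nt, where 236 exons remained, it was 12.7% to 18.9%. ND mouse 7, with the longest list, was highest in every bin. HFrD mouse 1 or 7 was lowest in every bin, and the other mice of both diets lay between them and overlapped.

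**Figure D2:**
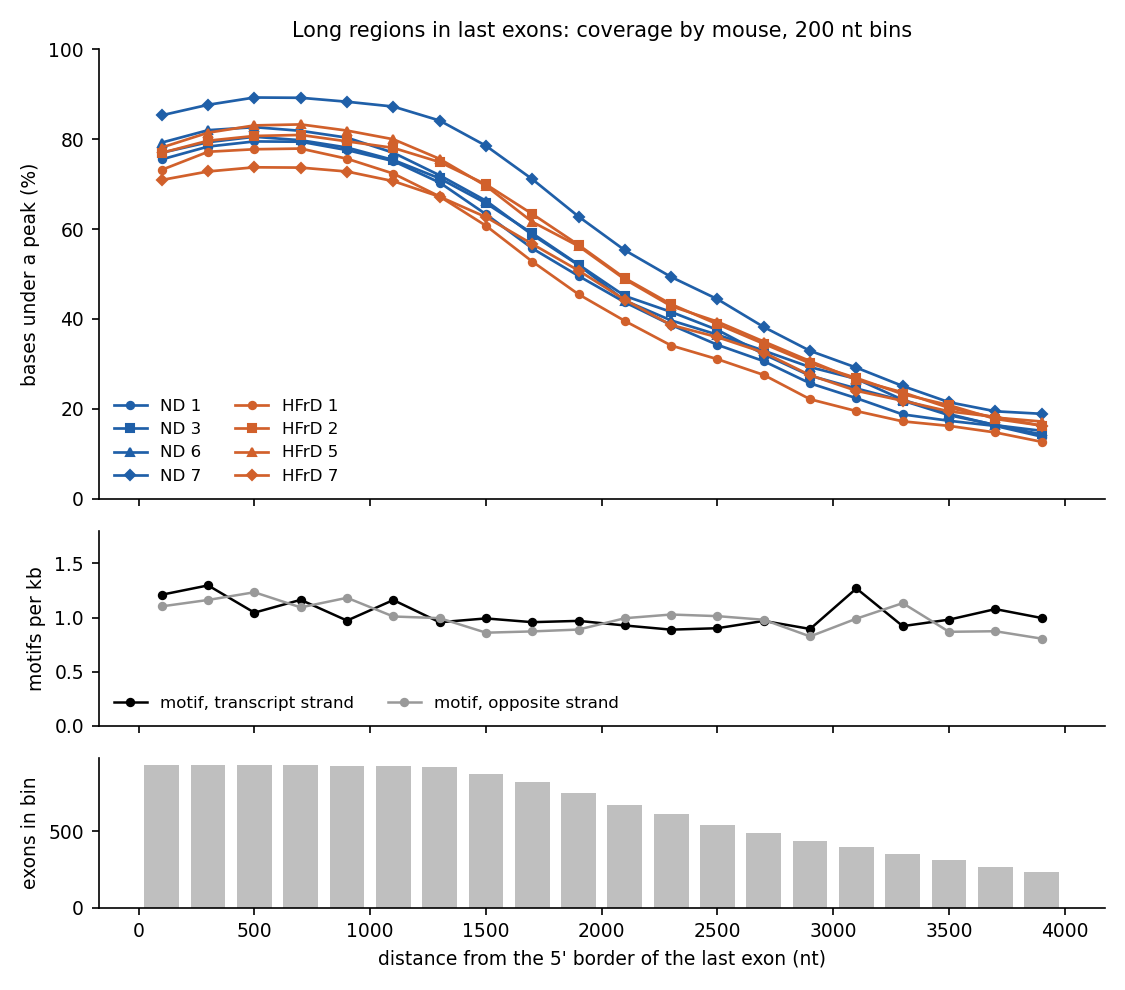
Coverage of the 929 long regions in last exons against distance from the 5′ border of the exon in bins of 200 nt, with a line for each mouse (top), the motifs GGACT per kb on the transcript strand and on the opposite strand (middle) and the number of exons that reach the bin (bottom). Coverage lies between 70.9% and 85.3% in the first bin and between 12.7% and 18.9% in the last, and the lines of the diets overlap.

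Coverage also fell after the stop codon. In the 1000 regions that held it, coverage in the 200 nt before the stop codon was 80.0% to 92.7% among mice, in the 200 nt after it 75.8% to 90.3%, at 800 to 1000 nt after it 43.8% to 61.4% and at 1800 to 2000 nt after it 15.6% to 28.1%. Upstream, 73.3% to 86.8% of the bases lay under a peak at 1800 to 2000 nt before the stop codon, where 136 exons remained. GGACT stood at 1.34 per kb in the 200 nt before the stop codon and at 1.36 per kb in the 200 nt after it, and the reverse complement AGTCC at 1.07 and 0.802 per kb. In the bins from 200 to 2000 nt after the stop codon GGACT ranged from 0.876 to 1.10 per kb and AGTCC from 0.810 to 0.948. In those from 2000 to 200 nt before it GGACT ranged from 0.771 to 1.54 and AGTCC from 1.01 to 1.35. The value of 1.54 came from the bin at 1800 to 2000 nt before the stop codon, with 136 exons. Every other bin was lower in GGACT than the bins on either side of the stop codon.

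**Figure D3:**
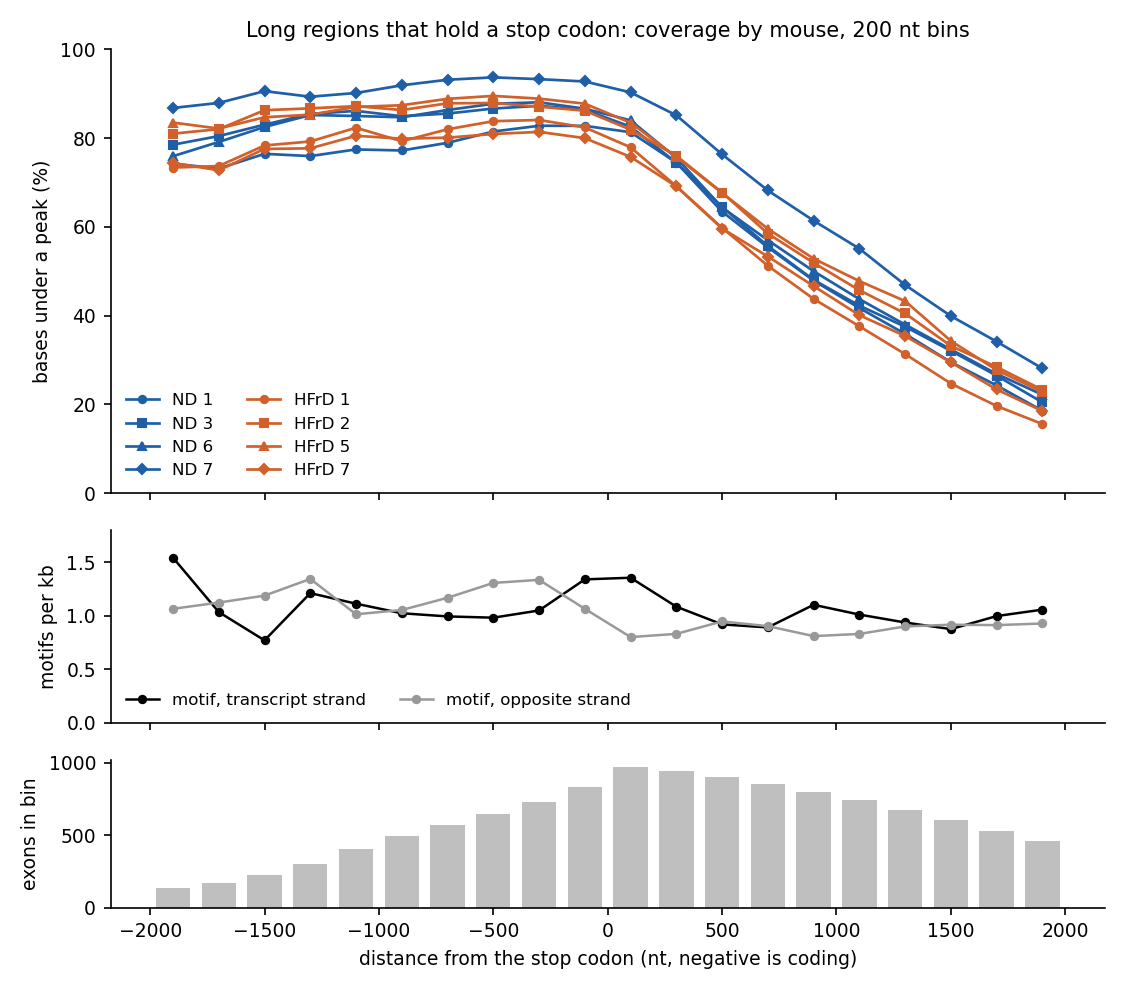
Coverage of the 1000 long regions that hold a stop codon against distance from it in bins of 200 nt, for each mouse (top), with GGACT per kb on the transcript strand and on the opposite strand (middle) and the number of exons in each bin (bottom). Coverage is 80.0% to 92.7% just before the stop codon and 15.6% to 28.1% at 1800 to 2000 nt after it.

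The motif was counted in all long regions with a model. GGACT occurred on the transcript strand of 1133 of 1297 long regions (87.4%), with a median of 2 and a maximum of 15 in Son, and was not found in 164. In the shorter classes 77.8%, 60.4% and 17.3% of regions held it, in order of falling length. Per kb, long regions held 1.09 GGACT and 1.07 AGTCC, and regions of 1000 to under 1500 bp 1.28 and 1.01. Per length, long regions were thus not richer in the motif than the next shorter class. In windows of 300 nt the motif was found in 27.4% of 9998 windows of all long regions and in 21.3% of 3121 windows of their exons outside the region. In the 460 long regions with at least 500 nt of exon outside, GGACT stood at 1.07 per kb inside and 0.844 outside. The reverse complement AGTCC was also lower outside, at 1.06 and 0.874 per kb, so the difference was not particular to the motif strand. A match says only that these letters occur, and these shares carry no test.

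Within a long region, the part that every mouse covered was compared with the rest. In 754 long regions that were found in all 8 lists and had a model, the bases under a peak of all 8 mice made up a median of 78.2% of the region (median 1688.5 nt), and in 173 regions (22.9%) the whole region. This shared part held the stop codon in 511 of 560 regions with a stop codon (91.3%), and it reached the 5′ border of the exon in 71.5% and the 3′ border in 29.7%. In 373 of these regions at least 500 nt lay outside the shared part. There the shared part held 1.24 GGACT per kb and the rest 0.918, and AGTCC stood at 1.10 and 0.987 per kb. The G and C content moved with it, with a median of 52.1% in the shared part and 46.8% outside, and its part in the motif counts was not tested. In last exons the 2 parts held 1.21 and 0.926 GGACT per kb.

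Long regions were found in most mice. A peak was present in all 8 lists for 799 of them (57.1%), in 7 for 208, in 6 for 146, in 5 for 120 and in 4 for 126. The share found in all 8 lists was 45.0% for regions of 1000 to under 1500 bp and 42.8% for those under 500 bp. ND mice held 1211, 1235, 1255 and 1320 of the 1399 regions, and HFrD mice 1193, 1223, 1263 and 1128. On average this was 1255 ± 46.8 for ND and 1202 ± 56.9 for HFrD mice (SD, n = 4 each). The diets overlapped, and the order of the mice was that of their list lengths, except that HFrD mouse 5 came before ND mouse 6. A mouse that held a region covered a median of 91.9%, 94.3%, 94.6% and 98.4% of it in ND and 89.0%, 98.0%, 94.8% and 95.8% in HFrD livers. A mouse rarely covered a long region with more than 1 peak, in 29 to 47 regions per mouse.

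Peaks of long regions also stood high within their own lists. Ranked by the deposited score, −10 times log10 of the p-value of the authors' peak caller, the best peak of a long region had a median percentile of 66.4 to 73.9 among mice, against 53.0 to 58.8 for the shorter regions, and it was higher in 8 of 8 mice. The deposited fold enrichment differed less. Its median was 9.19, 8.99, 9.1 and 9.27 in ND and 9.48, 7.95, 8.83 and 8.16 in HFrD livers for long regions, and for shorter regions it lay between 7.82 and 8.93. HFrD mice 2 and 5 had a higher median fold in the shorter regions than in the long ones, and the other 6 mice the reverse. Scores and folds of peaks come from the reads that also set their length, so no test was made.

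**Figure D4:**
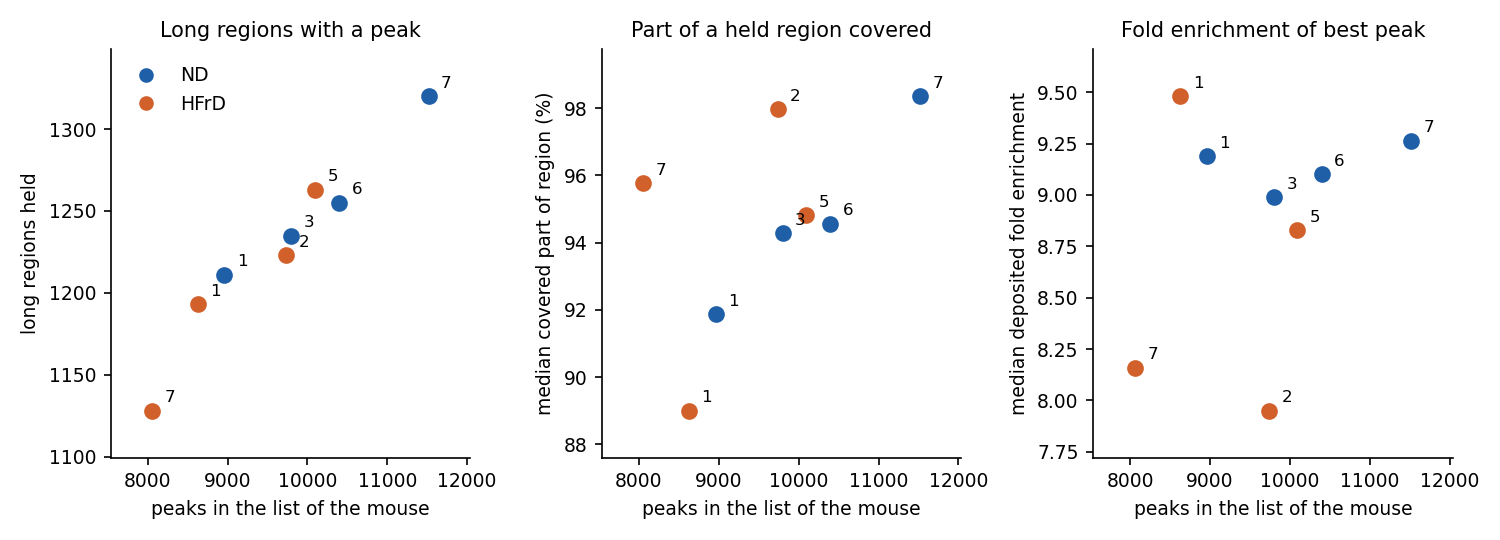
Number of long regions with a peak (left), median part of a held region under peaks (middle, percent) and median deposited fold enrichment of the best peak (right), each against the number of peaks in the list, with a point for each of the 8 mice and its number. The regions held run from 1128 in HFrD mouse 7 to 1320 in ND mouse 7, and the diets overlap in all 3 panels. The vertical axes do not start at 0.

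Next, the long regions were compared between the diets, first by presence. Each ND mouse and none of the HFrD mice held a peak for 6 long regions, 0.429% of them, where the share among all 9547 regions in at least 4 lists was 0.67%. The reverse held for 4 long regions (0.286%), where the share among all regions was 0.168%. More long regions were held by more ND than HFrD mice (298) than the reverse (164), and 937 were held by as many of each. That lean of 64.5% toward ND was 65.4% in the shorter regions, and the ND lists were longer on average (10168 ± 1076 and 9128 ± 949 peaks, SD, n = 4 each). Each of the 10 separated regions reached the required 4 lists through a single diet, so presence, which the choice of regions used, had to differ in them and its test carries no support. They stood at the smallest p that Fisher's exact test allows for 4 against 4 mice (p = 0.0286, two-sided), as did 1.08% of all 7410 regions tested. After Benjamini-Hochberg adjustment none of the 392 long regions tested passed, with an adjusted p of 1 in Fisher's exact test and 0% of all regions called. At that p, 4235 regions would have had to reach it for any to pass. Without HFrD mouse 1, 2, 5 or 7 the count toward ND was 14, 12, 12 and 8, and without ND mouse 7 the count toward HFrD was 10. With every list shortened to the length of the shortest, Chtf8, Snrk, Inhbb and Ppp1r3g alone remained of the 10, and with peaks of a score of at least 100 Mief2, Snrk and Inhbb alone.

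The 6 regions present in ND livers alone were those of Rassf3, Mief2, Snrk, Chtf8, S1pr2 and Gm8979. Rassf3, a Ras association domain protein, was covered over all 2736 nt of its last exon in each of the 4 ND mice and over 0 nt in each HFrD mouse (chr10:121410350-121413085). Mief2, which recruits the fission machinery to the outer mitochondrial membrane, was likewise covered over its whole last exon of 2036 nt in 4 ND mice and 0 HFrD mice (chr11:60730916-60732951). Snrk, a kinase related to AMPK, was covered over 2417, 3467, 3467 and 3467 nt in ND mice and 0 nt in HFrD mice, a mean of 3204 ± 525 nt in ND livers (SD, n = 4). Chtf8, a subunit of the clamp loader for sister chromatid cohesion, was covered over 2664, 1211, 2664 and 2664 nt in ND mice (2301 ± 726 nt, SD, n = 4) and 0 nt in HFrD mice, and its region held 10 GGACT, the most among the separated regions with a model. For both genes a single ND mouse lay below the others, mouse 1 for Snrk and mouse 3 for Chtf8.

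S1pr2, a receptor of sphingosine 1-phosphate that also binds conjugated bile acids, was covered over 962, 1954, 918 and 1096 nt in ND mice and 0 nt in HFrD mice (chr9:20966287-20968240). Its region held 2 GGACT, but neither lay under the peaks of all 4 ND mice, so no site is printed for it. Gm8979, a predicted gene, was covered over 1245, 1769, 1249 and 1493 nt in ND mice. In S1pr2 the covered part was thus wider in ND mouse 3 than in the other ND mice, and in both genes every ND mouse lay above every HFrD mouse. Rassf3, Snrk and Chtf8 held another peak elsewhere in the gene in all 4 HFrD mice, so the absence there is that of the long region and not of the gene. Mief2, S1pr2 and Gm8979 held no other peak in any mouse.

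The regions present in HFrD livers alone were those of Inhbb, Ppp1r3g, Osmr and Hic2, and none of these genes held another peak in any mouse. Inhbb encodes the beta B chain of activin and inhibin. Its last exon was covered over 2002, 2180, 2112 and 2606 nt in HFrD mice and 0 nt in ND mice (chr1:119415492-119418097), with fold enrichments of 10.4, 8.51, 5.72 and 10.3. Ppp1r3g, which directs protein phosphatase 1 to glycogen, was covered over 1449, 2158, 2063 and 2041 nt in HFrD mice (chr13:35968231-35970388). HFrD mouse 1 was the lowest of its group there. Osmr, the oncostatin M receptor subunit, was covered over 1747, 1635, 1125 and 1551 nt at the end of its coding sequence and in its 3′UTR (chr15:6814182-6815928). Hic2, a transcriptional repressor with zinc fingers, was covered over 1806, 1700, 1733 and 1305 nt (chr16:17257574-17259589). The within-list percentile of these 4 regions was moderate, with medians of 45.4 for Inhbb, 48.6 for Ppp1r3g, 49.5 for Osmr and 27.4 for Hic2.

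Covered length, the bases of a region under the peaks of a mouse, allowed a comparison of regions that both diets held. It was longer in every ND mouse than in any HFrD mouse for 28 long regions (2.00%), where the share among all regions in at least 4 lists was 1.37%, and longer in every HFrD mouse for 16 (1.14%), where that share was 0.419%. These counts include the 10 separated regions. Each region so counted had an exact permutation p of 0.0286, two-sided, the smallest over the 70 splits of the mice. By the same test 1.79% of all 9547 regions had p under 0.05. Covered length comes from the peaks that also set the choice of regions, and it is 0 where a mouse had no peak. In regions that reached 4 lists or 1500 bp mainly through a single diet, this p therefore carries no support. After adjustment over all of these regions 0 of 1399 long regions passed by the exact permutation test, with an adjusted p of 1 and 0% of all regions called, and 44 passed at an unadjusted p under 0.05. For any to pass, 5456 regions would have had to reach the smallest p. Without ND mouse 7 the counts were 34 and 48. Without HFrD mouse 1 they were 48 and 36, without HFrD mouse 2 they were 63 and 28, without HFrD mouse 5 they were 53 and 26, and without HFrD mouse 7 they were 43 and 25. Without ND mouse 1 they were 56 and 23, and without ND mouse 6 they were 46 and 21.

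Within regions found in all 8 lists, 9 of 799 long regions (1.13%) were longer in every ND mouse, where the share over all 4360 such regions was 0.413%, and 6 (0.751%) in every HFrD mouse, where it was 0.206%. Covered length was the same in all 8 mice for 64.6% of the regions in all 8 lists and for 22.5% of the long ones. Whether this accounts for the higher shares among long regions was not tested. The 15 genes described next were picked after their values were seen.

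Jade1, a scaffold of a histone acetyltransferase complex, was covered over 3343, 3570, 3680 and 3584 nt of its last exon in ND mice and 2242, 2294, 1942 and 2277 nt in HFrD mice (chr3:41613123-41616802). ND mice averaged 3544 ± 143 nt and HFrD mice 2189 ± 166 nt (SD, n = 4 each), and the lowest ND mouse lay far above the highest HFrD mouse. Its fold enrichment did not part the diets, with 25.2 to 41.0 in ND and 28.4 to 37.0 in HFrD livers. Wdr89, a WD repeat protein, was covered over 1629, 1492, 2164 and 2240 nt in ND mice and 604, 866, 635 and 627 nt in HFrD mice. Bcl7a, a subunit of SWI/SNF chromatin remodelling complexes, was covered over 1244, 1330, 1587 and 1410 nt in ND mice and 478, 456, 692 and 571 nt in HFrD mice (chr5:123371018-123372643). In Jade1 and Bcl7a the gap between the diets was wider than the spread within either diet, and in Wdr89 the ND mice spread more widely than that gap. Bcl7a and Wdr89 met the choice by length mainly through ND mice, so their gaps carry no support.

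Foxa1, a pioneer transcription factor of liver development, was covered over 2730, 2610, 2638 and 2730 nt in ND mice and 2022, 2436, 2564 and 2293 nt in HFrD mice (chr12:57540631-57543360). Its highest HFrD mouse lay close below its lowest ND mouse. Ppp1r15a, which directs protein phosphatase 1 to the initiation factor eIF2 alpha in the stress response, was covered over 2408 nt in every ND mouse and 1886, 2183, 1794 and 1829 nt in HFrD mice. The fold enrichment of its best peak was 18.8, 20.0, 19.7 and 18.2 in ND and 15.7, 11.8, 12.8 and 8.77 in HFrD mice, so both measures were lower in every HFrD mouse. Dnajc28, a J-domain protein, was covered over 3123, 3123, 2406 and 3123 nt in ND mice and 2096, 2351, 1818 and 2213 nt in HFrD mice. For the 3 other regions the mean covered lengths were 1912 and 1680 nt in ND and HFrD livers for Zfp81, 1903 and 1833 nt for Safb, which binds RNA and scaffold DNA, and 3146 and 2973 nt for the Wnt receptor gene Fzd8. The diets were barely apart in these 3. The lowest ND and highest HFrD mouse covered 1758 and 1750 nt in Zfp81. In Safb these were 1903 and 1892 nt and in Fzd8 2987 and 2978 nt. HFrD mouse 2, at 1664 nt, lowered the mean of Safb.

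Toward HFrD, Calcrl, the receptor partner of calcitonin gene-related peptide and adrenomedullin in endothelium, was covered over 1090, 897, 1592 and 1485 nt in ND mice and 2078, 1649, 2131 and 2283 nt in HFrD mice (chr2:84331396-84333678). Efnb2, the membrane ligand ephrin-B2, was covered over 1433, 1445, 1522 and 1806 nt in ND mice and 2056, 2065, 1878 and 2018 nt in HFrD mice (chr8:8618912-8620976). The highest ND mouse of each lay just below the lowest HFrD mouse. Zfp408, a zinc finger gene, was covered over 1107, 1569, 1289 and 1295 nt in ND mice and 1739, 2805, 1806 and 1713 nt in HFrD mice, with mouse 2 above the others of its group. The means for Gm10642 were 1258 and 1563 nt in ND and HFrD livers, those for Trappc5, a subunit of a vesicle tethering complex, 1837 and 2066 nt, and those for the arginine methyltransferase gene Prmt6 1370 and 1495 nt. The highest ND and lowest HFrD mouse covered 1388 and 1422 nt in Gm10642. In Trappc5 these were 1946 and 2008 nt and in Prmt6 1438 and 1472 nt.

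**Figure D5:**
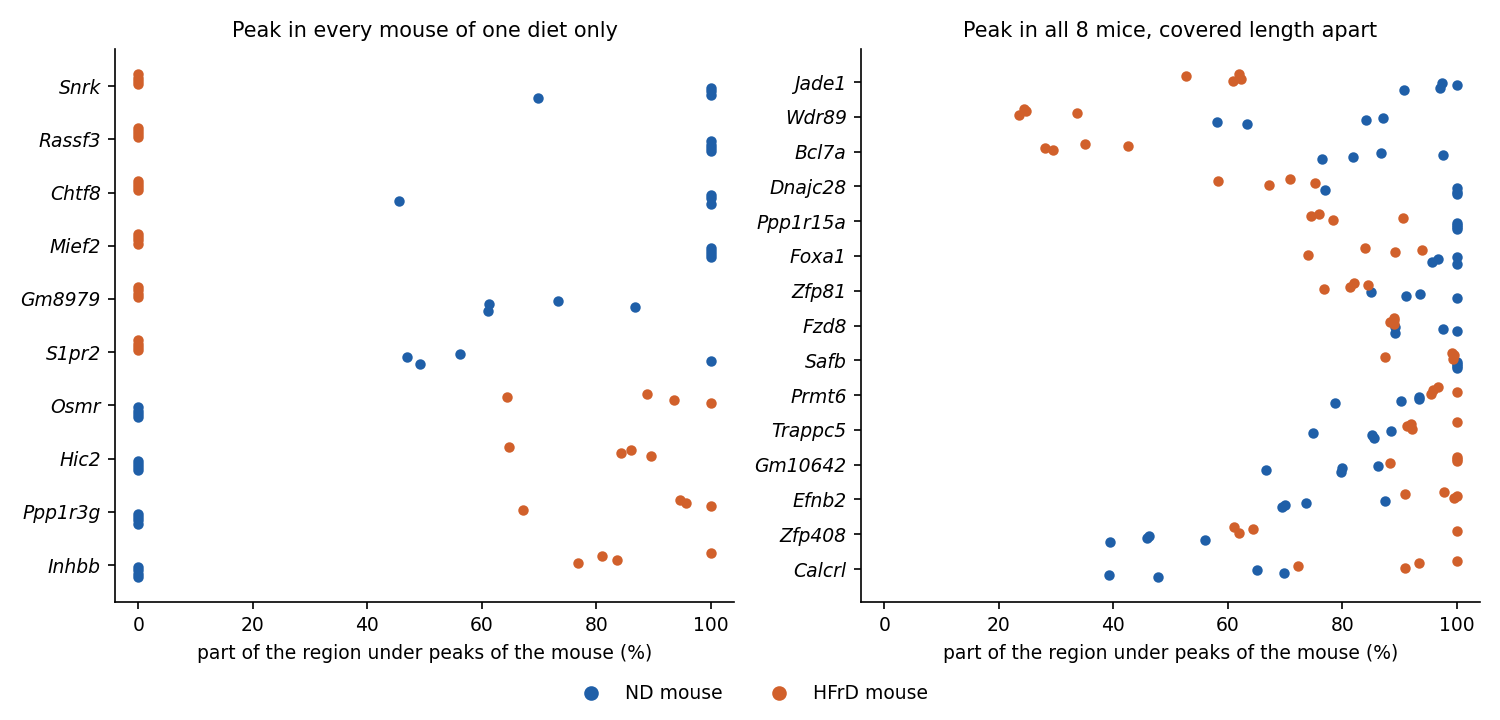
Part of the region under peaks of each mouse, in percent, for the 10 long regions with a peak in every mouse of a single diet (left) and the 15 long regions found in all 8 lists whose covered length did not overlap between the diets (right), with a point for each ND and HFrD mouse. On the left every mouse of the diet without a peak sits at 0, and on the right every mouse of a diet lies above every mouse of the other, as for Jade1 with 3343 to 3680 nt in ND and 1942 to 2294 nt in HFrD mice.

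Several regions that were held by only some mice also did not overlap in covered length. Armc7, an armadillo repeat gene, was covered over 0, 650, 0 and 0 nt in ND mice and 1077, 1709, 1755 and 1709 nt in HFrD mice. Cd180, a Toll-like receptor homologue of B cells and macrophages, was covered over 0, 0, 0 and 1273 nt in ND mice and 1825, 1984, 1993 and 1936 nt in HFrD mice. Ggta1, which encodes the alpha-galactosyltransferase of cell surface glycans, was covered over 0, 0, 0 and 771 nt in ND mice and 2036, 1985, 2175 and 780 nt in HFrD mice. ND mouse 7 was the only ND mouse with a peak in Cd180 and in Ggta1, and HFrD mouse 7 was close to it in Ggta1.

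Toward ND, Cyhr1, a gene with a cysteine and histidine rich domain, was covered over 2656, 2860, 2906 and 2813 nt in ND mice and 1576, 0, 1517 and 0 nt in HFrD mice. Vps33a, a subunit of lysosomal tethering complexes, was covered over 1627, 1499, 2462 and 2462 nt in ND mice and 1346, 0, 0 and 0 nt in HFrD mice. In Kmt2c, a histone H3 methyltransferase, internal exon 36 was covered over all 1896 nt in 4 ND mice and over 1604, 0, 0 and 0 nt in HFrD mice (chr5:25313980-25315875). Exon 43 of the same transcript was covered over all 1707 nt in all 8 mice, so the exons of a single gene differed. HFrD mouse 1 was the only HFrD mouse with a peak in Vps33a and in exon 36 of Kmt2c.

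Genes of chromatin were frequent among the long regions. Of 5131 genes with a region in at least 4 lists, 1315 (25.6%) had a long region. For the list of chromatin genes it was 22 of 28 (78.6%), with 30 long regions, of which 22 were found in all 8 lists. This gene list and those of the next paragraphs were chosen with earlier results of these data known. Their shares are therefore descriptions and carry no test. Of all 1399 long regions, 10 were separated between the diets. Covered length was longer in every ND mouse in 2.00% of them and in every HFrD mouse in 1.14%. None of the 30 chromatin regions was separated, and exon 36 of Kmt2c was the only one whose covered length did not overlap. Counts this small do not set the list apart from all long regions. Many of the 30 were whole exons of coding sequence, covered in full in every mouse. Exon 3 of Setd2, the methyltransferase of H3 lysine 36, was covered over all 4286 nt in 8 of 8 mice, exon 40 of Kmt2d over 2952 nt, exon 5 of Nsd1 over 2560 nt, exon 11 of Bptf over 2308 nt, exon 12 of the demethylase gene Kdm6b over 2168 nt and exon 3 of Kmt2b over 2036 nt. Last exons of the same list were covered in part and varied more. Tet3, a 5-methylcytosine dioxygenase, was covered over 1997 to 4326 nt of its last exon of 7453 nt, and the last exon of Nsd1 was covered over 2439, 2303, 3823 and 2484 nt in ND mice and 0, 3584, 2542 and 0 nt in HFrD mice.

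Among nuclear receptors and their coregulators, 12 of 24 genes with a region had a long one, 8 of them in all 8 lists, and none parted the diets. Few of all long regions did so either, 2.00% toward ND and 1.14% toward HFrD by covered length. The acetyltransferase genes Crebbp and Ep300 were held by all 8 mice, Crebbp over 2151 nt in each and Ep300 over 2502 to 3081 nt of its last exon. Rxra, the common partner of nuclear receptors, was covered over 3727 to 3779 nt of its last exon of 3779 nt. Exon 10 of the coactivator gene Ncoa6 was covered over 2976 nt in 8 of 8 mice. The Mediator subunit gene Med1 was covered over 6031, 4860, 4858 and 6162 nt in ND mice and 3957, 3853, 4930 and 3839 nt in HFrD mice, with an overlap through HFrD mouse 5 (exact permutation p = 0.0857, two-sided, adjusted p = 1). Nr5a2, a regulator of bile acid synthesis genes, was covered over 2127, 2127, 1885 and 2127 nt in ND mice and 1006, 0, 2127 and 1993 nt in HFrD mice, which also overlapped.

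Signalling receptors, adaptors and inhibitors had a long region in 25 of 42 genes, of which 15 regions were found in all 8 lists. Osmr was separated toward HFrD. Fzd8 lay just higher in covered length in every ND mouse, where the lowest covered 2987 nt and the highest HFrD mouse 2978 nt. Among all long regions 2.00% lay apart toward ND and 1.14% toward HFrD. A single region each way among 25 does not set the list apart. The insulin receptor substrates were covered in full. The first exon of Irs1, which holds the whole coding sequence, was covered over 4663 nt and that of Irs2 over 3989 nt in 8 of 8 mice, with 10 and 7 GGACT. The last exon of Il6ra, the interleukin 6 receptor, was covered over 2063 nt in 8 of 8 mice. Jun, an immediate early transcription factor without introns, was covered over 2853, 2935, 3136 and 2944 nt in ND mice and 2867, 2841, 2694 and 2512 nt in HFrD mice, with a single overlap between ND mouse 1 and HFrD mouse 1 (exact permutation p = 0.0571, two-sided, adjusted p = 1). Socs3, an inhibitor of cytokine signalling, was held by 4 ND mice and 3 HFrD mice, and Notch1 and Notch2 by 3 and 2 ND mice and by 4 and 3 HFrD mice.

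Of 17 genes of hepatic metabolism with a region, 3 had a long one (17.6%), where the share over all genes was 25.6%. The last exon of Acaca, acetyl-CoA carboxylase 1 of fatty acid synthesis, was covered over 2092 nt in 8 of 8 mice, with fold enrichments of 7.91 to 13.5. Cyp8b1, the sterol 12-alpha-hydroxylase that sets the type of bile acid and has no introns, was covered over all 1950 nt in ND mice 1, 3 and 6 and HFrD mouse 1, and over 0 nt in the other mice (Fisher's exact test p = 0.486, two-sided, adjusted p = 1). The last of the 3 was Ppp1r3g. In the circadian clock, 4 of 7 genes with a region had a long one. Bhlhe40 and Nfil3, repressors of clock output, were found in all 8 lists over 2164 to 2432 nt and 1779 to 1813 nt. Per2 was covered over 0, 0, 1582 and 1732 nt in ND mice and 571, 1890, 1668 and 1901 nt in HFrD mice, and Bhlhe41 over 0, 1321, 1232 and 2172 nt in ND mice and 0, 1298, 0 and 0 nt in HFrD mice. Both overlapped between the diets.

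Zinc finger genes, a group looked at after the values were seen, made up a large block of the long regions. Of 179 genes with symbols Zfp, Zbtb, Zscan or Zkscan and a region in at least 4 lists, 134 (74.9%) had a long region, against 25.6% of all genes. In 115 of 135 of their regions with a model (85.2%) it was the last exon, where such genes encode their array of fingers, and the regions held a median of 1494 nt of coding sequence, against 1125 nt in all long regions. Of their 140 regions 70 (50%) were found in all 8 lists, where that share was 57.1% for all long regions, and they held 0.916 GGACT per kb, where all long regions held 1.09. By covered length, Zfp81 and Zfp526 lay higher in every ND mouse and Zfp408 in every HFrD mouse. Zfp81 did so narrowly, with 1758 nt in the lowest ND and 1750 nt in the highest HFrD mouse. These were 2 and 1 of the 140 regions, where the shares of all long regions were 2.00% and 1.14%. Zinc finger genes have close paralogues, and it is not known how reads that fit several copies were counted.

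The longest regions were found in genes of giant proteins and in long last exons. Eppk1, which encodes the cytoskeletal linker epiplakin, had the longest at 11238 bp (chr15:76101488-76112725). It was covered over 10422, 10463, 10881 and 11238 nt in ND mice and 0, 10907, 0 and 0 nt in HFrD mice, so HFrD mouse 2 overlapped with the ND mice (exact permutation p = 0.114, two-sided, adjusted p = 1). Trim56, an antiviral ubiquitin ligase, came next at 9018 bp, all in its last exon, and was covered over 6422 to 8943 nt in all 8 mice. Exon 12 of Spen, a transcriptional repressor, was covered over all 8020 nt in 8 of 8 mice, and the last exon of Plec, the cytoskeletal linker plectin, over 7412 nt. Stard9, a kinesin, was covered over 3020, 2698, 5496 and 7369 nt in ND mice and 4426, 4753, 3340 and 0 nt in HFrD mice, and so varied widely within a diet. Of all long regions, 294 were at least 3000 bp and 34 at least 5000 bp long, and the median was 2168 bp.

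The 10 long regions with the highest score percentile had scores at or near the upper limit of the deposited values, 3233, where many peaks tie, so their order has no meaning. Phf3, a regulator of transcript elongation, was covered over 2636 to 3601 nt with folds of 40.6 to 69.3, Sec62, a channel subunit of the endoplasmic reticulum, over 1714 to 2050 nt with folds of 36.5 to 44.9, and Hist1h1c, a linker histone without introns, over 1455 to 1561 nt. Hnrnpm, a splicing factor, had the highest folds among these, 92.3 to 146. Its region was covered over 1808, 989, 693 and 615 nt in ND mice and 975, 613, 612 and 631 nt in HFrD mice. No mouse covered all 2233 bp of this merged region, whose peaks also name March2. Kat6a, a histone acetyltransferase, was covered over 3441, 4390, 4130 and 4375 nt in ND mice and 3557, 2915, 3319 and 3201 nt in HFrD mice, with an overlap of ND mouse 1 and HFrD mouse 1 (exact permutation p = 0.0571, two-sided, adjusted p = 1).

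Covered length varied among mice far more in some regions than in others. In the 799 long regions found in all 8 lists the coefficient of variation over mice had a median of 7.76%, and it passed 50% in 12. These 12, picked after their values were seen, were last exons of which some mice covered a much shorter part than others. Aldh2, the mitochondrial aldehyde dehydrogenase of liver, was covered over 612, 489, 510 and 1940 nt in ND mice and 851, 486, 892 and 492 nt in HFrD mice. Its long region thus rests on ND mouse 7. Sgms2, a sphingomyelin synthase, was covered over 2070, 912, 2062 and 2225 nt in ND mice and 1299, 2053, 1256 and 4198 nt in HFrD mice, and Gemin4, a subunit of the SMN complex, over 2905, 526, 3510 and 3076 nt in ND mice and 1575, 3221, 1572 and 607 nt in HFrD mice. The diets overlapped in each of these 3 genes, and peaks of the Gemin4 region also name Fam57a.

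Some transcripts held several long regions. Of the 1315 genes, 77 had at least 2 and none more than 3. Zfhx3, a transcription factor with zinc fingers and homeodomains, had 3, in exons 2, 9 and 10, of 2768, 5454 and 2487 bp, each found in all 8 lists. In the related gene Zfhx4 the regions of exons 10 and 11 were found in all 8 lists and that of exon 2 in 2 ND and 2 HFrD mice. In Zfhx2 the region of the last exon was held by 2 ND and 4 HFrD mice, that of exon 9 by 4 ND and 2 HFrD mice and that of exon 2 by 3 ND mice and 1 HFrD mouse. Regions of a gene share a transcript and are not independent of each other.

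The limit of 1500 bp fell among regions of nearly equal length. Just inside it lay Alkbh8 with 1500 bp and Tab2, Capn15 and Golim4 with 1501 bp, and just outside Btbd3 with 1499 bp, Wdr33 with 1497 bp, Mier3 with 1495 bp and Cebpz with 1493 bp. Tab2, an adaptor of the kinase TAK1, and Cebpz, a nucleolar protein, are whole internal exons covered in full in 8 of 8 mice on either side of the limit. Alkbh8, which modifies transfer RNA, was covered over 660, 647, 1500 and 587 nt in ND mice and 553, 556, 0 and 0 nt in HFrD mice, so a single mouse carried it over the limit. Of all long regions, 1376 held a single peak of at least 1500 bp in some list, and 1188 were as long as their longest peak.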

How the data were processed

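MeRIP-seq of liver was reported for 4 ND and 4 HFrD mice as 150 bp paired-end libraries. The submitters' processing notes name cutadapt 1.9.3, HISAT2 2.0.4 and the build mm10. Peaks were called by the authors with MACS separately in each mouse, and those that overlap exons of messenger RNA were selected. For MACS, version and settings were not given in the sources used here. Each deposited score is −10 times log10 of a peak's p-value, at least 50 in these lists, and fold enrichment, as deposited, is the ratio of IP signal to background. Reads were not counted here, so depth is unknown.

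Starts count from 0 in the lists, so 1 was added, and peaks of the 8 lists that shared 1 bp were merged. A mouse held a region if its list had a peak there, and its covered length was the number of bases under its peaks. Each mouse was a replicate, and p-values measure the spread between these mice, which may be in part technical. Presence was tested by Fisher's exact test over regions that at least 2 mice held and at least 2 lacked, and covered length by an exact permutation test over regions in at least 4 lists, with Benjamini-Hochberg adjustment over all regions tested and a threshold of 0.05. No pair of lists shared more than 2 peaks with the same position, score and fold enrichment. Regions were placed on the GENCODE M21 or RefSeq model of the transcript that most of their peaks name, and 92.5% of the peaks of regions in at least 4 lists had one. Sequences were read from GRCm38. Covered length was checked on simulated lists. The tools were Python 3.11.15 with scipy 1.17.1, numpy 2.4.6, pandas 2.3.3, pysam 0.24.0 and matplotlib 3.10.9.

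Genes were named by rule, namely separated regions, the 8 per direction with the largest difference in mean covered share, the 10 longest, 10 of the highest score percentile, 4 on either side of 1500 bp and members of 5 gene lists (hepatic metabolism, nuclear receptors and coregulators, chromatin, signalling and the circadian clock). A region that the rule names is not reported here. Other genes were picked after their values were seen, as stated beside them. The members and lists were chosen with earlier results of these data known. Alternatives were a score of at least 100, fold enrichment of 5 or more, lists cut to equal length, coverage of at least 50% for presence, each mouse left out and the mice whose numbers both diets share.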

Additional observations from a re-analysis of the deposited data

Results flagged for a closer look

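In groups of 4 mice, a value that stands far from the other 3 by Dixon's criterion arises by chance in about 1 in 20 groups, and the values below are given as such. That rate does not hold where the other 3 mice had no peak, because any single peak then meets the criterion. This was so for Armc7, Cd180 and Ggta1 in ND mice and for Kmt2c and Vps33a in HFrD mice. ND mouse 7, with the longest list, covered 43.4% of its long regions in full, apart from the other ND mice. HFrD mouse 2, with a list of 9736 peaks, covered 43.5% in full, so the value did not follow list length alone. Among ND mice, covered length stood apart at 650 nt in Armc7 (mouse 3), 1273 nt in Cd180 and 771 nt in Ggta1 (both mouse 7), all above the others. It lay below the others at 2406 nt in Dnajc28 (mouse 6), 1211 nt in Chtf8 (mouse 3) and 2417 nt in Snrk (mouse 1). Among HFrD mice, it stood above the others at 866 nt in Wdr89 and 2805 nt in Zfp408 (both mouse 2), 1604 nt in Kmt2c and 1346 nt in Vps33a (both mouse 1) and 2200 nt in Trappc5 (mouse 7). It lay below the others at 1077 nt in Armc7, 1449 nt in Ppp1r3g and 1422 nt in Gm10642 (all mouse 1), 1664 nt in Safb and 2958 nt in Fzd8 (both mouse 2), 1942 nt in Jade1 (mouse 5) and 780 nt in Ggta1 (mouse 7).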

How the results depend on the processing

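The 1399 regions were kept and their counts recomputed. With a score of at least 100, 4 and 2 regions were separated toward ND and HFrD (6 and 4 with all peaks), and 19 and 7 had a longer covered length in every ND or every HFrD mouse (28 and 16 with all peaks), of which 2, 1, 13 and 4 were among the regions found with all peaks. With lists of equal length, 8055 peaks each, the counts were 5, 3, 18 and 14, with 2, 2, 14 and 8 shared. With a fold enrichment of at least 5 they were 7, 3, 27 and 16, with 4, 2, 20 and 12 shared. With presence set at 50% coverage 8 and 5 regions were separated, with 4 and 4 shared. Of the 10 separated regions, Inhbb alone remained under all 4 of these alternatives. Leaving out each mouse in turn, which loosens the criterion, gave 6 to 14 and 4 to 10 separated regions and 34 to 63 and 21 to 48 regions apart in covered length. In the paired comparison with a replicate block, for which mice 1 and 7 of both diets share a number, the counts were 55, 9, 264 and 94. It used these mice alone, which loosens the criterion further, so these counts do not compare with those of all 8 mice. Nothing in the labels ties these numbers to a shared animal, litter or day. By Fisher's exact test and the exact permutation test, 0 regions passed adjustment under every alternative for which they were run, and with all peaks 10 and 44 long regions had an unadjusted p under 0.05. The cause of the changed counts was not tested. Depth per mouse is unknown, and a longer list may hold weaker peaks.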
